A study of Mus musculus with 9 samples.

Results

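Laminins and integrins are the ligand and receptor families through which cells attach to basement membranes. The members were 36 named mouse genes, 10 laminin chains and 26 integrin subunits, listed by gene name and not by a measured value. Earlier results of these data were known when the list was drawn up. One integrin, Itga10, is not analysed here. The 35 others are a small share of the 24170 genes to which the deposited counts were summed, and 30 of them had enough counts to be tested.

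The study set neurons against glia in primary cultures of mouse cells, with 3 replicate libraries of mRNA per cell type. The labels state no strain, genotype or treatment, and nothing in them says that replicates came from separate cultures, so p-values measure only the spread between these libraries. DRG neurons, sensory cells of the dorsal root ganglia, were taken from embryos at E13.5 and kept in culture for about 2 weeks. OPC, the progenitors of myelinating oligodendrocytes, came from cortex at P6 to P9 and spent 6 to 7 days in culture. Astrocytes came from cortex at P1 to P3 and were grown for about 21 days, and both glial types were from mice of either sex. Tissue, donor age and days in culture changed together with cell type and cannot be told apart from it.

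A laminin is a trimer of an alpha, a beta and a gamma chain that assembles outside the cell into the sheet of a basement membrane. An integrin is a heterodimer of an alpha and a beta subunit that spans the membrane, and the alpha subunit largely decides which ligand is bound. In the nervous system, Schwann cells, vessels and the glial surface of the brain carry basement membranes, and sensory axons grow on laminin through integrins that share the beta subunit Itgb1.

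The libraries held 30710093 to 53594210 assigned counts, and log2 CPM correlated between replicates, across genes, at 0.969 to 0.987 in DRG neurons, 0.966 to 0.982 in OPC and 0.932 to 0.986 in astrocytes. Each culture carried the markers of its label: 10 sensory neuron genes summed to 6452 to 6630 CPM in DRG neurons, 9.70 to 17.3 in OPC and 3.27 to 13.7 in astrocytes. The sums of 10 OPC markers were 13.3 to 29.3 CPM in DRG neurons, 5142 to 6907 in OPC and 343 to 1314 in astrocytes. Olig1 made up most of the astrocyte sum, at 734 ± 443 CPM. Gpr17 differed between OPC replicates 1 to 3, at 786, 9.44 and 9.84 CPM. Lhfpl3 went the other way, at 2.98 ± 1.19 CPM in DRG neurons against 0.0927 ± 0.0615 in OPC. C1ql1 averaged 61.6 ± 43.9 CPM in OPC and 67.1 ± 30.3 in astrocytes. The 10 astrocyte markers summed to 312 to 796 CPM for DRG neurons, 992 to 1256 for OPC and 6747 to 8569 for astrocytes. Aldoc made up most of the DRG sum and was higher there by mean, at 573 ± 255 CPM against 361 ± 45.3 in astrocytes. Every other marker of that list averaged at most 6.52 CPM in DRG neurons, the value of Aldh1l1. Slc1a3 made up most of the OPC sum, at 794 ± 149 CPM. Markers of other cells were also present. Of 10 fibroblast and mural cell markers, the sums were 539, 247 and 496 CPM in DRG replicates 1 to 3, 2.30 to 2.86 CPM in OPC, and 1154, 8258 and 9748 CPM in Astrocytes replicates 1 to 3. Acta2 and Tagln, smooth muscle genes, made up most of the astrocyte sum, with means of 41.0 ± 34.5 and 32.8 ± 28.5 CPM in DRG neurons against 3683 ± 2912 and 2509 ± 1547 CPM in astrocytes; the collagen gene Col3a1 averaged 134 ± 48.3 CPM in DRG neurons, 0.391 ± 0.244 CPM in OPC and 20.2 ± 17.5 CPM in astrocytes (SD, n = 3 each). Of 14 microglia markers they were 13.8 to 24.1 CPM in DRG neurons, 24.0, 82.7 and 275 CPM in OPC replicates 1 to 3, and 3629, 603 and 553 CPM in Astrocytes replicates 1 to 3. Of 10 Schwann and satellite glia markers they were 81.4 to 139 CPM in DRG neurons, 28.8 to 41.3 CPM in OPC and 47.2 to 144 CPM in astrocytes. All 10 fibroblast and mural markers were detected in DRG neurons and in astrocytes, and 1 of the 10 was at 0 in OPC; of the microglia markers 1 was at 0 in DRG neurons and 1 in OPC, and all were detected in astrocytes. Values below are CPM (counts scaled to library size, with TMM factors between libraries), listed in the order of replicates 1, 2 and 3. In bulk RNA, fewer cells of a type and less RNA per cell cannot be told apart, here and in every comparison below.

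The 3 cell types carried different laminin and integrin mRNAs, and more members were lower than higher in both comparisons against astrocytes. In DRG neurons against astrocytes, 7 of the 30 tested members were higher and 16 were lower, where 60.2% of all 14848 tested genes differed in either direction, 27.4% higher and 32.8% lower. The median log2 fold change of the members was -2.20, against -0.13 over all genes. In DRG neurons against OPC, 11 members were higher and 8 lower, and 59.5% of all genes differed (28.4% higher, 31.1% lower). Their median was -0.13, against -0.08 over all genes. In OPC against astrocytes, 4 members were higher and 18 lower, with 51.8% of all genes called (26.3% higher, 25.5% lower). Their median was -3.05, against 0.09 over all genes. The share of members called, 76.7%, 63.3% and 73.3% in that order, lay above the share over all genes in each comparison, and that gap was not tested. The comparisons share libraries, so their counts are not independent. Laminin chains, 9 of 10 tested, were 4 higher and 5 lower in DRG neurons against astrocytes, 4 higher and 1 lower against OPC, and 2 higher and 6 lower in OPC against astrocytes. Of 15 integrin alpha subunits tested out of 17, 3 were higher and 7 lower in DRG neurons against astrocytes, 5 higher and 4 lower against OPC, and 2 higher and 10 lower in OPC against astrocytes. For 6 of 8 beta subunits the counts were 0 higher and 4 lower, 2 higher and 3 lower, and 0 higher and 2 lower in that order; at an unadjusted p under 0.05, edgeR's test gave 4, 5 and 3 of the 6 in either direction, and DESeq2 and limma voom also called 0 higher in either comparison against astrocytes.

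**Figure D1:**
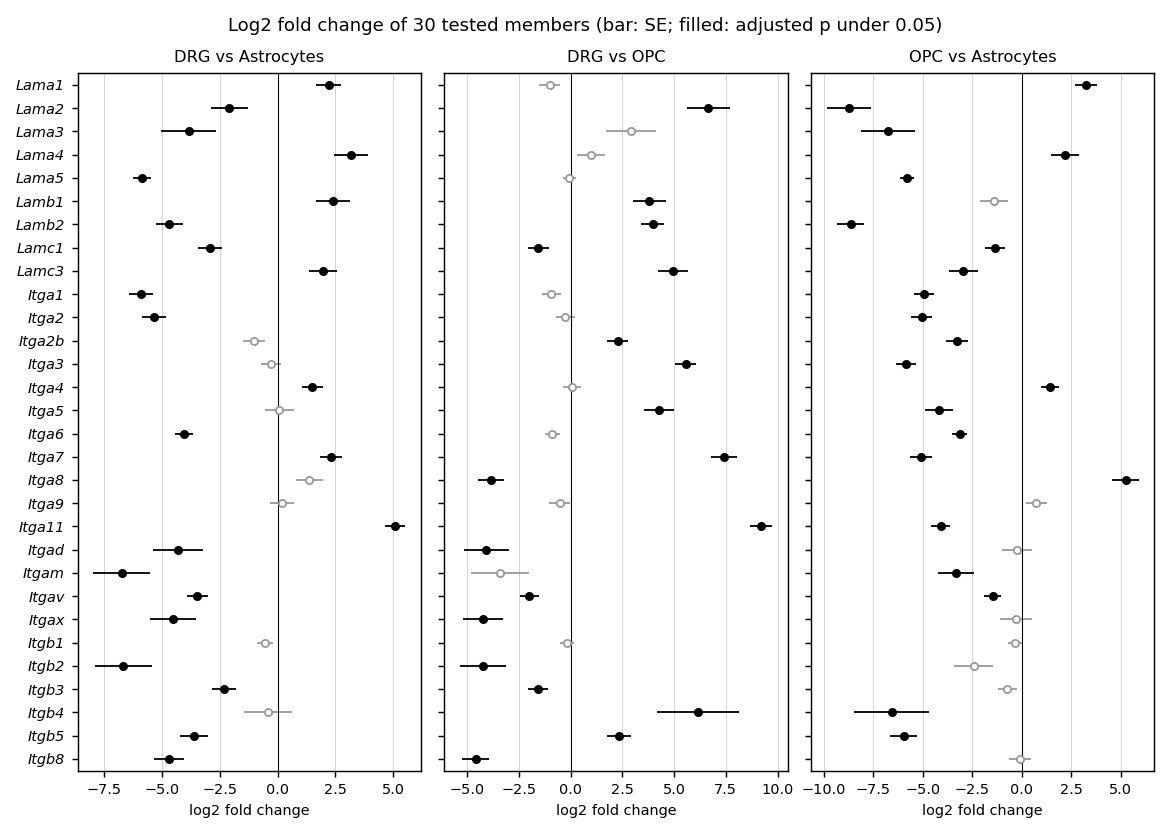
Log2 fold change of each of the 30 tested laminin and integrin genes (rows) for each of the 3 pairs of cell types (columns), from the edgeR fit over 9 libraries. Bars are SE and filled points passed the adjusted threshold of 0.05; the x scales differ between columns. Lamb2 and Lama5 lie far left in both columns against astrocytes, Itga7 and Itga11 lie right in both DRG columns, and Itgb1 is unfilled in all 3 (over all 9 libraries).

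The counting limits which members can be read as a level. The deposited counts are per RefSeq transcript accession, and 22.0 to 24.7% of the reads in a library stand in a separate ambiguous class, which a read shared by accessions of a gene would join. The counting mode is not given in the sources used here. For 27 members there is a single accession, with no exon base shared with another accession on its strand. The other 8 have several, and 6 of these (Itga6, Itgb5, Itgb4, Itgam, Lamb3 and Itgal) rest on fewer than 1000 exon bases that no other accession shares. Itgal, the alpha subunit of a lymphocyte integrin, has 4 accessions with 0 such bases and is listed at 0 in all 9 libraries, so its expression cannot be read from these counts. Lamb3, a beta chain of epithelial laminin, has 261 such bases and is listed at 0 in all 9 libraries. That 0 covers only those bases and cannot be read as absence. For Itga6 all 2587 counts stand on 1 accession, which has 205 such bases, 105 of them coding bases of exon 25 of 26, which encodes 1 of the alternative cytoplasmic tails. For Itgb5 all 6666 counts stand on 1 accession with 226 such bases, of which 29 are coding. These coding stretches are shown because the values of the 2 genes below follow these isoforms and not the whole gene. They are from GENCODE vM21 on mm10, read 5′ to 3′ on the plus strand, and the capitals in Itga6 mark the codons of the membrane-proximal motif that integrin alpha tails share.
Itga6, chr2:71853534-71853638: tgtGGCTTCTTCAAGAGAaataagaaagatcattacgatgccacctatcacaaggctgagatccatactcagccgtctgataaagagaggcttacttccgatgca
Itgb5, chr16:33947853-33947881: gtgagcgctccagggcccgttatgaaatg

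Among laminin alpha chains, astrocytes carried mainly Lama5, and DRG neurons and OPC carried mainly Lama4. Lama5, the alpha chain found most widely in mature basement membranes (chromosome 2, 180176373 to 180225904), had 13.9, 7.14 and 6.87 CPM in DRG neurons, 11.4, 8.45 and 9.19 CPM in OPC and 454, 692 and 466 CPM in astrocytes. Every astrocyte library lay above every other library, and those of DRG neurons and OPC overlapped. It was 57.9-fold lower in DRG neurons relative to astrocytes (log2 fold change -5.86, SE 0.37, BH-adjusted p = 3.46e-06) and 55.5-fold lower in OPC relative to astrocytes (log2 fold change -5.80, SE 0.37, BH-adjusted p = 9.93e-06), and DRG neurons against OPC did not pass (log2 fold change -0.06, BH-adjusted p = 0.877). These calls against astrocytes held in all 20 alternatives. Lama4, an alpha chain of vessels and peripheral nerve (chromosome 10, 38965515 to 39110188), ran the other way. It had 39.9, 14.9 and 39.8 CPM in DRG neurons, 18.6, 17.4 and 11.8 CPM in OPC and 0.564, 5.65 and 4.34 CPM in astrocytes, so that no astrocyte library reached the lowest library of either other type. Lama4 was higher in DRG neurons relative to astrocytes (log2 fold change 3.17, BH-adjusted p = 0.00492) and in OPC relative to astrocytes (log2 fold change 2.18, BH-adjusted p = 0.0289), and DRG neurons and OPC did not differ past the threshold (log2 fold change 0.98, BH-adjusted p = 0.240, and 0.0496 without Astrocytes replicate 1). The OPC call ended without any 1 OPC library (BH-adjusted p = 0.0546 to 0.0667) and without Astrocytes replicate 3 (0.0591).

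Lama1, the alpha chain of the laminin of the early embryo, had 8.32, 5.54 and 7.67 CPM in DRG neurons, 15.0, 15.8 and 12.8 CPM in OPC and 0.433, 2.33 and 1.91 CPM in astrocytes. The 3 groups did not overlap, with OPC highest. Lama1 was higher in DRG neurons relative to astrocytes (log2 fold change 2.21, BH-adjusted p = 0.00570) and in OPC relative to astrocytes (log2 fold change 3.23, BH-adjusted p = 0.00128), and did not pass in DRG neurons against OPC (log2 fold change -1.02, BH-adjusted p = 0.112), but did without Astrocytes replicate 1 (0.00736). Lama2, the alpha chain of muscle and Schwann cell basement membranes, had 22.4, 6.76 and 20.1 CPM in DRG neurons, 0.112, 0.265 and 0.0962 CPM in OPC and 9.29, 116 and 84.4 CPM in astrocytes. OPC libraries lay below all others, and Astrocytes replicate 1 fell inside the range of DRG neurons. Lama2 was 101-fold higher in DRG neurons relative to OPC (log2 fold change 6.65, BH-adjusted p = 0.000526; 7.25 without OPC replicate 2) and lower in OPC relative to astrocytes (log2 fold change -8.74, BH-adjusted p = 0.000276; -9.34 without OPC replicate 2). In DRG neurons against astrocytes it was lower (log2 fold change -2.09, BH-adjusted p = 0.0449), a call that 8 of the 9 single-library omissions ended, all but that of Astrocytes replicate 1, with adjusted p of 0.0566 to 0.148. Lama2 was low in the same astrocyte library that was lowest in fibroblast and mural markers, and in the same DRG library; the part of those cells in its level was not tested. Lama3, the alpha chain of epithelial laminin, had 2.54, 1.89 and 3.98 CPM in DRG neurons, 0.224, 0.753 and 0.120 CPM in OPC and 106, 3.02 and 12.1 CPM in astrocytes, and Astrocytes replicate 1 stood far above the others. That library also had the highest microglia marker sum, 3629 CPM against 603 and 553, and the lowest fibroblast and mural sum of the astrocyte libraries. The part of other cells in the level of Lama3 was not tested. Lama3 was lower in DRG neurons relative to astrocytes (log2 fold change -3.85, BH-adjusted p = 0.0192), which ended without Astrocytes replicate 1 (log2 -1.44, BH-adjusted p = 0.127), DRG replicate 1 (0.0617) or DRG replicate 2 (0.0675). In OPC against astrocytes the log2 fold change was -6.75 (BH-adjusted p = 0.00326), -4.34 without Astrocytes replicate 1 and -7.83 without OPC replicate 2. DRG neurons against OPC did not pass (log2 fold change 2.91, BH-adjusted p = 0.0619), but did without Astrocytes replicate 1 (0.00846) or 2 (0.0214), with DESeq2's size factors (0.0498) or Wald test (0.00552), and with only the 6 libraries compared (0.00694).

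**Figure D2:**
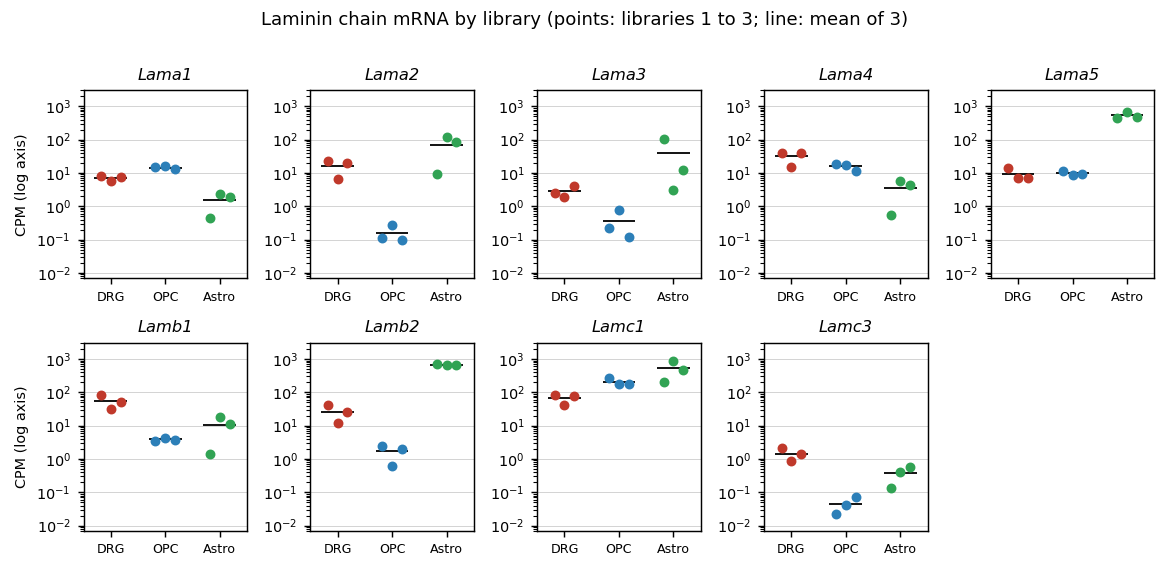
CPM (log axis) of 9 laminin chains in the libraries of DRG neurons, OPC and astrocytes (Astro), 3 points a group with their mean as a line. Lama5 and Lamb2 stand at 454 CPM or higher in all 3 astrocyte libraries, Lamb1 and Lama4 are highest in DRG neurons by mean, and Lama2 is at 0.265 CPM or lower in OPC.

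Of the beta chains, Lamb2 was highest in astrocytes and Lamb1 in DRG neurons. Lamb2, the beta chain of synaptic and kidney basement membranes (chromosome 9, 108479847 to 108490530), had 41.9, 12.3 and 25.0 CPM in DRG neurons, 2.46, 0.611 and 2.00 CPM in OPC and 710.0, 642 and 662 CPM in astrocytes. The groups were far apart, and the spread between astrocyte libraries was small. It was 25.5-fold lower in DRG neurons relative to astrocytes (log2 fold change -4.67, SE 0.57, BH-adjusted p = 0.000131), 15.6-fold higher in DRG neurons relative to OPC (log2 fold change 3.97, SE 0.57, BH-adjusted p = 0.000317) and 398-fold lower in OPC relative to astrocytes (log2 fold change -8.64, SE 0.69, BH-adjusted p = 2.83e-05). The fibroblast and mural marker sum differed between the same astrocyte libraries, at 1154, 8258 and 9748 CPM, and the part of those cells in the level of Lamb2 was not tested. Lamb1, the beta chain of most embryonic laminins (chromosome 12, 31265146 to 31329644), had 80.7, 30.7 and 51.0 CPM in DRG neurons, 3.51, 4.36 and 3.73 CPM in OPC and 1.43, 18.5 and 10.9 CPM in astrocytes. DRG neurons lay above all other libraries, while OPC fell inside the range of astrocytes. Lamb1 was higher in DRG neurons relative to astrocytes (log2 fold change 2.39, BH-adjusted p = 0.0192) and relative to OPC (log2 fold change 3.81, BH-adjusted p = 0.00258), and OPC against astrocytes did not pass (log2 fold change -1.41, BH-adjusted p = 0.131) but did without Astrocytes replicate 1 (log2 -1.93, BH-adjusted p = 0.00402). Against astrocytes the Lamb1 call ended without DRG replicate 1 (0.0620) or Astrocytes replicate 3 (0.0523), and the value was 3.13 without Astrocytes replicate 2.

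Of the gamma chains, Lamc1, which stands in most laminins (chromosome 1, 153218922 to 153332786), was present everywhere. It had 85.2, 42.3 and 79.9 CPM in DRG neurons, 264, 176 and 172 CPM in OPC and 203, 890.3 and 464 CPM in astrocytes. All DRG libraries lay below all others, and OPC and astrocytes overlapped. It was lower in DRG neurons relative to astrocytes (log2 fold change -2.91, BH-adjusted p = 0.00110; -2.27 without Astrocytes replicate 2) and relative to OPC (log2 fold change -1.56, BH-adjusted p = 0.0213). The call against OPC did not hold without DRG replicate 2 (0.0755), nor without OPC replicate 1 (0.0653) or 3 (0.0623). In OPC against astrocytes the log2 fold change of -1.35 (BH-adjusted p = 0.0433) passed only narrowly and was lost on leaving out any 1 of 7 libraries (BH-adjusted p = 0.0554 to 0.190), Astrocytes replicate 2 among them (log2 -0.71); the call stood without DRG replicate 2 or Astrocytes replicate 1. Lamc3, a rarer gamma chain, averaged 1.45 ± 0.629 CPM in DRG neurons, 0.0451 ± 0.0252 CPM in OPC and 0.372 ± 0.226 CPM in astrocytes (SD, n = 3 each). Lamc3 was higher in DRG neurons relative to astrocytes (log2 fold change 1.97, BH-adjusted p = 0.0174, and 0.0589 without DRG replicate 1) and relative to OPC (log2 fold change 4.93, BH-adjusted p = 0.000395; 5.62 without OPC replicate 3), and lower in OPC relative to astrocytes (log2 fold change -2.96, BH-adjusted p = 0.00832; -3.55 without OPC replicate 3).

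Chains can be set beside each other only per length, as CPM per kilobase of transcript. On that scale the alpha chains summed to 8.76 ± 3.66 CPM per kb in DRG neurons, 5.06 ± 0.832 for OPC and 59.0 ± 13.2 for astrocytes (SD, n = 3 each). The beta chains summed to 14.04 ± 6.99, 0.968 ± 0.0950 and 121 ± 4.74 CPM per kb in DRG neurons, OPC and astrocytes. The gamma chains reached 9.32 ± 3.17, 26.8 ± 6.79 and 68.2 ± 45.5 CPM per kb in the same order, so that OPC held far more gamma than beta chain mRNA. Lama4 made up 58.5 ± 4.46% of alpha chain mRNA in DRG neurons, 51.7 ± 3.77% for OPC and 0.942 ± 0.661% for astrocytes. For Lama5 the shares were 10.1 ± 4.05%, 17.0 ± 2.95% and 79.7 ± 1.90% in DRG neurons, OPC and astrocytes. In OPC the second alpha chain was Lama1, with 30.3 ± 2.48%, against 9.41 ± 2.91% in DRG neurons and 0.268 ± 0.158% in astrocytes. Lama2 took 18.7 ± 2.84% in DRG neurons, 0.320 ± 0.168% for OPC and 11.7 ± 8.49% for astrocytes. Lamb1 made up 67.5 ± 2.96% of beta chain mRNA in DRG neurons, 70.0 ± 15.4% for OPC and 1.503 ± 1.27% for astrocytes, and Lamb2 all the rest, with Lamb3 listed at 0. Lamc1 was 97.4 ± 0.430% of gamma chain mRNA in DRG neurons, 99.97 ± 0.0218% for OPC and 99.9 ± 0.0539% for astrocytes. DRG replicate 2 was the lowest DRG library for 8 of the 9 tested chains, and its alpha chain shares were 54.1% for Lama4 against 58.6% and 63.0% in DRG replicates 1 and 3, 12.8% for Lama1 against 7.76% and 7.70%, and 13.8% for Lama5 against 10.8% and 5.77%. It was also the lowest DRG library in fibroblast and mural markers. Astrocytes replicate 1 was likewise the lowest astrocyte library in these markers, at 1154 CPM against 8258 and 9748. It was also the highest in microglia markers, at 3629 CPM against 603 and 553. It was the lowest astrocyte library for 7 of the 9 chains and 12 of 21 integrin subunits, and the highest for 2 and 6. Highest and lowest libraries were not counted over all genes, so these counts have no share to be set beside. The part of fibroblasts, mural cells or microglia in the chain and subunit levels was not tested.

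**Figure D3:**
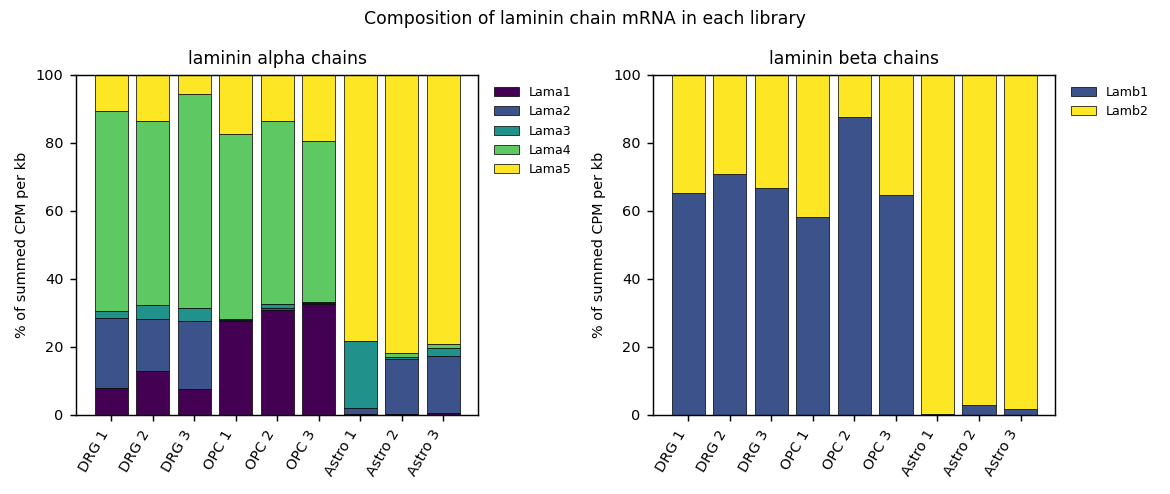
Share (%) of each laminin alpha chain (left) and beta chain (right) in the summed CPM per kb of its family, 1 stacked bar per library, for DRG neurons, OPC and astrocytes (Astro). Lama4 and Lamb1 take most of the bar in all DRG libraries and Lama5 and Lamb2 in all astrocyte libraries, and Lama1 takes 27.6 to 32.5% in OPC.

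The main laminin-binding alpha subunits are Itga3, Itga6 and Itga7, each paired with Itgb1. Itga7, known from muscle and from regrowing peripheral axons (chromosome 10, 128933421 to 128958286), had 237, 447 and 511 CPM in DRG neurons, 1.94, 2.44 and 2.65 CPM in OPC and 30.4, 124 and 84.4 CPM in astrocytes. The 3 groups did not overlap, with DRG neurons highest and OPC lowest. It was 5.0-fold higher in DRG neurons relative to astrocytes (log2 fold change 2.32, SE 0.48, BH-adjusted p = 0.00255), 169.7-fold higher in DRG neurons relative to OPC (log2 fold change 7.41, SE 0.61, BH-adjusted p = 1.55e-05) and 33.9-fold lower in OPC relative to astrocytes (log2 fold change -5.08, SE 0.55, BH-adjusted p = 0.000114). Those 3 calls held in all 20 alternatives. Itga3, a laminin receptor of epithelia and neurons, had 143, 174 and 170.4 CPM in DRG neurons, 5.86, 1.81 and 2.72 CPM in OPC and 122, 281 and 192 CPM in astrocytes. OPC libraries lay far below, and DRG neurons fell inside the range of astrocytes. Itga3 was higher in DRG neurons relative to OPC (log2 fold change 5.55, BH-adjusted p = 2.66e-05; 6.16 without OPC replicate 1), lower in OPC relative to astrocytes (log2 fold change -5.84, BH-adjusted p = 4.43e-05; -6.44 without OPC replicate 1) and not past the threshold in DRG neurons against astrocytes (log2 fold change -0.29, BH-adjusted p = 0.573). Itga6, through the bases shown above, had 1.05, 0.674 and 1.45 CPM in DRG neurons, 2.01, 1.87 and 2.02 CPM in OPC and 11.6, 21.1 and 19.3 CPM in astrocytes. The 3 groups did not overlap, with astrocytes highest. Itga6 was lower in DRG neurons relative to astrocytes (log2 fold change -4.04, BH-adjusted p = 3.49e-05) and in OPC relative to astrocytes (log2 fold change -3.14, BH-adjusted p = 0.000204), and DRG neurons against OPC did not pass (log2 fold change -0.90, BH-adjusted p = 0.0554) but did without DRG replicate 3 (0.0337) or Astrocytes replicate 1 (0.0338).

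Collagen receptors of the same family split in opposite directions. Itga11, a collagen receptor best known from fibroblasts (chromosome 9, 62677855 to 62783979), had 51.6, 78.2 and 95.1 CPM in DRG neurons, 0.0671, 0.163 and 0.144 CPM in OPC and 1.26, 3.02 and 2.35 CPM in astrocytes, with no overlap between groups. It was 34.0-fold higher in DRG neurons relative to astrocytes (log2 fold change 5.09, SE 0.43, BH-adjusted p = 1.64e-05) and 585-fold higher in DRG neurons relative to OPC (log2 fold change 9.19, SE 0.54, BH-adjusted p = 3.63e-06). Itga11 was lower in OPC relative to astrocytes (log2 fold change -4.11, BH-adjusted p = 0.000162). Several fibroblast markers had the same order of group means as Itga11, highest in DRG neurons and lowest in OPC, among them Col3a1 and Dcn, which averaged 3.43 ± 0.884 CPM in DRG neurons, 0.00745 ± 0.0129 CPM in OPC and 0.309 ± 0.237 CPM in astrocytes (SD, n = 3 each). Col3a1 and Dcn were also highest in DRG replicate 3, as was Itga11, but they were lowest in DRG replicate 2 and Itga11 in replicate 1. The sum of the 10 fibroblast and mural markers was highest in astrocytes. Within DRG neurons that sum was 539, 247 and 496 CPM, highest in replicate 1, where Itga11 was lowest. The part of fibroblasts in the level of Itga11 was not tested. Itga1, which binds collagen and laminin (chromosome 13, 114958079 to 115101964), had 2.91, 1.35 and 2.76 CPM in DRG neurons, 4.92, 5.56 and 2.89 CPM in OPC and 66.2, 189 and 160.2 CPM in astrocytes. Itga2, a collagen receptor of platelets and epithelia, had 0.812, 0.695 and 0.852 CPM in DRG neurons, 0.805, 1.24 and 0.770 CPM in OPC and 15.7, 24.7 and 54.1 CPM in astrocytes. For both genes the astrocyte libraries lay above all others and the DRG and OPC ranges overlapped. Itga1 was lower in DRG neurons relative to astrocytes (log2 fold change -5.89, BH-adjusted p = 2.26e-05) and in OPC relative to astrocytes (log2 fold change -4.96, BH-adjusted p = 8.67e-05). Itga2 was lower there too, at log2 -5.32 (BH-adjusted p = 3.54e-05; -4.69 without Astrocytes replicate 3) and -5.06 (BH-adjusted p = 8.41e-05; -4.42 without Astrocytes replicate 3). DRG neurons against OPC passed for neither (BH-adjusted p = 0.0974 and 0.645), though Itga1 passed without Astrocytes replicate 1 (log2 -0.94, BH-adjusted p = 0.0361).

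Among the receptors of fibronectin, vitronectin and other ligands with the RGD motif, Itga5 was higher in DRG neurons and in astrocytes against OPC, Itgav was lower in DRG neurons against both glial types, and Itga8 was higher in OPC against astrocytes and lower in DRG neurons against OPC. Itga5, the fibronectin receptor subunit, had 56.7, 85.3 and 65.4 CPM in DRG neurons, 1.10, 3.40 and 6.38 CPM in OPC and 26.5, 119.9 and 50.3 CPM in astrocytes. Itga5 was higher in DRG neurons relative to OPC (log2 fold change 4.26, BH-adjusted p = 0.000858; 5.18 without OPC replicate 3) and lower in OPC relative to astrocytes (log2 fold change -4.18, BH-adjusted p = 0.00135; -5.01 without OPC replicate 3 and -3.40 without Astrocytes replicate 2). DRG neurons lay inside the range of astrocytes (log2 fold change 0.08, BH-adjusted p = 0.924). Itgav, the alpha subunit that pairs with Itgb1, Itgb3, Itgb5, Itgb6 or Itgb8, had 27.9, 29.1 and 47.2 CPM in DRG neurons, 189.5, 139.7 and 86.3 CPM in OPC and 181, 571 and 396 CPM in astrocytes. Every DRG library lay below every glial library. Itgav was lower in DRG neurons relative to astrocytes (log2 fold change -3.46, BH-adjusted p = 0.000243) and relative to OPC (log2 fold change -2.0, BH-adjusted p = 0.00389). OPC was lower than astrocytes (log2 fold change -1.47, BH-adjusted p = 0.0197), a call lost without OPC replicate 2 (0.0593) or Astrocytes replicate 2 (0.0702). Itga8, a receptor for nephronectin (chromosome 2, 12106632 to 12301985), had 6.36, 1.79 and 5.71 CPM in DRG neurons, 41.0, 114 and 46.7 CPM in OPC and 0.959, 2.14 and 2.24 CPM in astrocytes, and OPC lay above all others. It was 14.6-fold lower in DRG neurons relative to OPC (log2 fold change -3.86, SE 0.62, BH-adjusted p = 0.000604; -3.26 without OPC replicate 2) and 37.8-fold higher in OPC relative to astrocytes (log2 fold change 5.24, SE 0.66, BH-adjusted p = 0.000269; 4.64 without OPC replicate 2). DRG neurons against astrocytes did not pass (log2 fold change 1.38, BH-adjusted p = 0.0644) but did without DRG replicate 2 (log2 1.78, BH-adjusted p = 0.0203). The ligand gene Npnt has 5 accessions and is listed at 0 in all 9 libraries. Reads shared by its accessions would join the ambiguous class, so this 0 cannot be read as absence.

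Itga4, a receptor for VCAM1 and fibronectin, had 20.6, 14.4 and 17.2 CPM in DRG neurons, 12.8, 25.7 and 11.1 CPM in OPC and 9.78, 5.13 and 3.46 CPM in astrocytes, and astrocytes lay below both. Itga4 was higher in DRG neurons relative to astrocytes (log2 fold change 1.5, BH-adjusted p = 0.0168; not past without Astrocytes replicate 2, 0.0534, or 3, 0.0563) and in OPC relative to astrocytes (log2 fold change 1.43, BH-adjusted p = 0.0246). The OPC call ended without OPC replicate 2 (0.104) or Astrocytes replicate 2 (0.0696) or 3 (0.0779). Itga2b, the platelet fibrinogen receptor subunit, had 2.94, 3.6 and 2.35 CPM in DRG neurons, 0.648, 0.692 and 0.505 CPM in OPC and 10.9, 4.37 and 2.74 CPM in astrocytes. Its highest astrocyte library, replicate 1, also had the most microglia marker mRNA, and the part of those cells was not tested. OPC lay below all others, and DRG neurons and astrocytes overlapped (log2 fold change -1.02, BH-adjusted p = 0.102, and 0.0338 without Astrocytes replicate 3). Itga2b was higher in DRG neurons relative to OPC (log2 fold change 2.26, BH-adjusted p = 0.00461) and lower in OPC relative to astrocytes (log2 fold change -3.28, BH-adjusted p = 0.00104; -2.52 without Astrocytes replicate 1). Itga9, a receptor for tenascin-C and other ligands that is related to Itga4, averaged 4.99 ± 3.29 CPM in DRG neurons, 7.28 ± 3.61 CPM in OPC and 4.36 ± 1.30 CPM in astrocytes (SD, n = 3 each), and passed in no comparison (BH-adjusted p = 0.762 in DRG neurons against astrocytes, 0.394 in DRG neurons against OPC and 0.267 in OPC against astrocytes).

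Itgb1, the common beta subunit, was abundant in all 3 cell types and differed past the threshold in no comparison with all 9 libraries. It had 794, 733 and 761 CPM in DRG neurons, 992, 916 and 703 CPM in OPC and 554, 1669 and 1080 CPM in astrocytes. Astrocyte libraries spanned both other ranges. The log2 fold changes were -0.53 for DRG neurons against astrocytes (SE 0.34, BH-adjusted p = 0.212), -0.19 for DRG neurons against OPC (SE 0.34, BH-adjusted p = 0.652) and -0.34 for OPC against astrocytes (SE 0.34, BH-adjusted p = 0.437). Without Astrocytes replicate 1, the lowest of the 9 libraries for Itgb1, it passed as lower in DRG neurons (log2 -0.86, BH-adjusted p = 0.0130) and in OPC (log2 -0.66, BH-adjusted p = 0.0483) relative to astrocytes. Itgb8, the partner of Itgav that activates latent TGF-beta (chromosome 12, 119162803 to 119238276), was low in DRG neurons. Itgb8 had 3.96, 1.60 and 8.37 CPM in DRG neurons, 180.5, 106 and 48.5 CPM in OPC and 119, 131 and 109.5 CPM in astrocytes, and every DRG library lay below every glial library. It was 25.9-fold lower in DRG neurons relative to astrocytes (log2 fold change -4.69, BH-adjusted p = 0.000303; -5.44 without DRG replicate 3) and 24.0-fold lower relative to OPC (log2 fold change -4.59, BH-adjusted p = 0.000335; -5.34 without DRG replicate 3). OPC against astrocytes did not pass (log2 fold change -0.10, BH-adjusted p = 0.894). Itgb5, another partner of Itgav, had 2.61, 3.81 and 4.72 CPM in DRG neurons, 0.313, 0.326 and 1.59 CPM in OPC and 53.5, 39.8 and 44.5 CPM in astrocytes, from the few bases named above. The groups did not overlap. It was lower in DRG neurons relative to astrocytes (log2 fold change -3.63, BH-adjusted p = 0.000764), higher in DRG neurons relative to OPC (log2 fold change 2.33, BH-adjusted p = 0.00771; 3.77 without OPC replicate 3) and lower in OPC relative to astrocytes (log2 fold change -5.96, BH-adjusted p = 0.000158; -7.31 without OPC replicate 3).

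Itgb3, a partner of Itgav and Itga2b, had 2.40, 0.905 and 1.37 CPM in DRG neurons, 2.66, 4.31 and 6.88 CPM in OPC and 5.38, 10.5 and 7.33 CPM in astrocytes. DRG neurons lay below the other groups, which overlapped. Itgb3 was lower in DRG neurons relative to astrocytes (log2 fold change -2.32, BH-adjusted p = 0.00337) and relative to OPC (log2 fold change -1.57, BH-adjusted p = 0.0209). The call against OPC ended without OPC replicate 3 (log2 -0.92, BH-adjusted p = 0.153), DRG replicate 2 (0.0755) or DRG replicate 3 (0.0678). Itgb4, which pairs with Itga6 in the hemidesmosomes of epithelia, rests on few counts, 23 in DRG neurons, 0 for OPC and 41 for astrocytes over 3 libraries each. Against the floor of 3 counts over the OPC libraries it was at least 8.97-fold higher in DRG neurons relative to OPC, and in OPC at least 14.1-fold lower than in astrocytes. Both passed (BH-adjusted p = 0.0293 and 0.0232). The first was lost without DRG replicate 1 or 3 or any 1 OPC library (BH-adjusted p = 0.05002 to 0.0645), and the second without OPC replicate 2 (0.0542). In astrocytes 0.696, 0.0237 and 0.0829 CPM were found, nearly all in replicate 1. That library also had the most microglia marker mRNA, and the part of those cells was not tested. Itgb6, a partner of Itgav in epithelia, had 2 counts over the 9 libraries and was not tested.

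**Figure D4:**
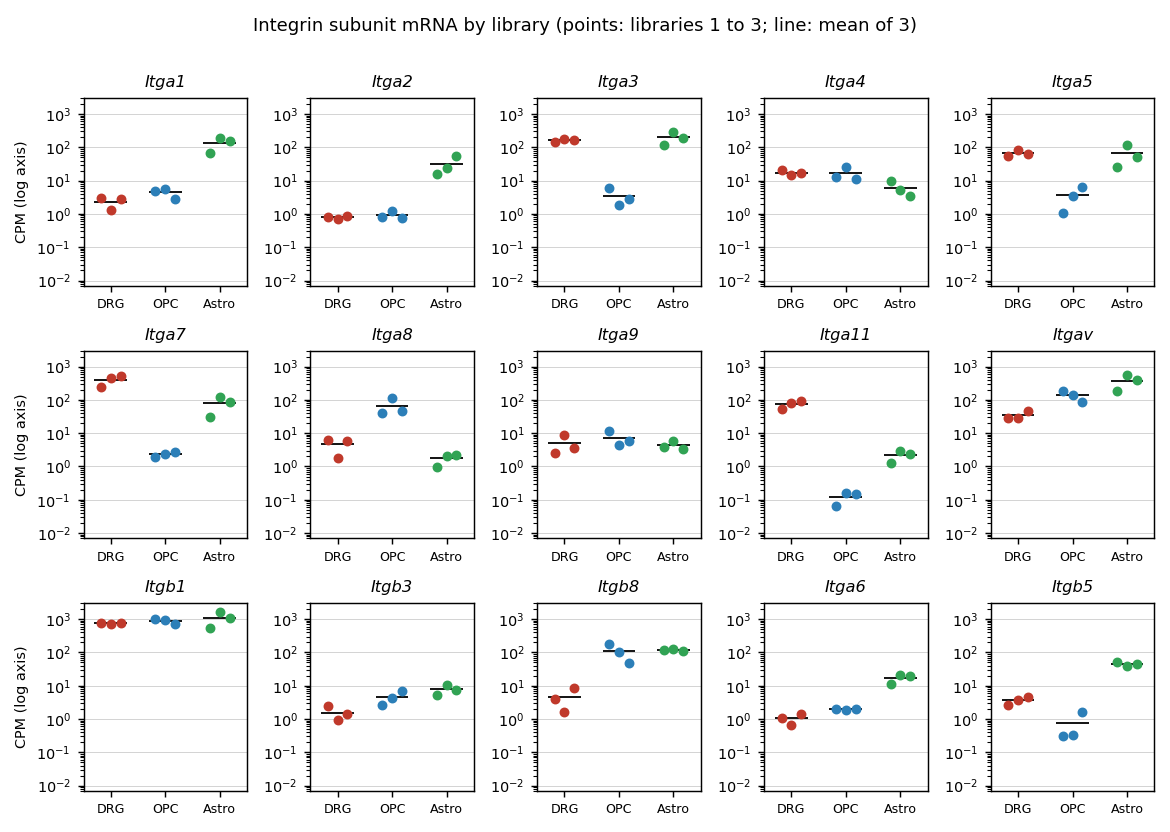
CPM (log axis) of 15 integrin subunits in the libraries of DRG neurons, OPC and astrocytes (Astro), 3 points a group with their mean as a line. Itga7 and Itga11 are highest in DRG neurons, Itga8 in OPC, Itga1, Itga2 and Itgb5 in astrocytes, and Itgb1 lies between 554 and 1669 CPM in all 9 libraries.

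Per kilobase, the alpha subunits summed to 173 ± 46.0 CPM per kb in DRG neurons, 38.7 ± 9.08 for OPC and 157 ± 72.9 for astrocytes, and the beta subunits to 202 ± 8.16, 246 ± 42.3 and 338 ± 132 CPM per kb in the same order (SD, n = 3 each). Itga7 alone made up 56.1 ± 6.49% of alpha subunit mRNA in DRG neurons, 1.59 ± 0.598% for OPC and 11.98 ± 2.38% for astrocytes. Itgav and Itga8 together led in OPC, with 50.4% (SD 14, n = 3) and 29.0 ± 12.2% there, against 2.88 ± 0.624% and 0.512 ± 0.373% in DRG neurons and 33.9 ± 2.30% and 0.201 ± 0.0389% in astrocytes. Itga3 made up 19.98 ± 3.89% in DRG neurons, 1.91 ± 1.10% for OPC and 26.9 ± 3.24% for astrocytes. Itga11 took 8.67 ± 0.494% in DRG neurons, 0.0680 ± 0.0336% for OPC and 0.290 ± 0.0218% for astrocytes. Of the beta subunits, Itgb1 made up 98.9 ± 0.266% in DRG neurons, 92.6 ± 1.04% for OPC and 82.4 ± 13.1% for astrocytes. Counted over the exon bases of no other accession, Itgb5 would take 7.552% in DRG neurons, 1.483% for OPC and 40.2% for astrocytes, where the full transcript length gave 0.563%, 0.105% and 4.77%, and Itga6 would take 2.417%, 15.49% and 26.21% of alpha subunit mRNA, where the full length gave 0.148%, 1.24% and 2.74%. On that scale Itgb1 would take 52.5% of beta subunit mRNA in astrocytes, and Itga3 15.45%, Itgav 20.01% and Itga7 7.193% of alpha subunit mRNA there. The place of Itgb5 and Itga6 in the order of levels therefore cannot be set, and the shares of other subunits in astrocytes depend on it.

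The leukocyte integrins pair Itgb2 with Itgal, Itgam, Itgax or Itgad, and in brain they are carried by microglia. Itgb2 (chromosome 10, 77530329 to 77565708) had 1.32, 0.211 and 0.284 CPM in DRG neurons, 1.86, 6.94 and 24.3 CPM in OPC and 115, 32.4 and 29.99 CPM in astrocytes. Itgax had 0.508, 0.105 and 0.284 CPM in DRG neurons, 1.32, 4.11 and 10.9 CPM in OPC and 3.99, 3.13 and 13.0 CPM in astrocytes. Itgb2 was highest in the astrocyte and in the OPC library with the highest microglia marker sums, 3629 CPM in Astrocytes replicate 1 and 275 CPM in OPC replicate 3; Itgax was highest in OPC replicate 3 but, among astrocytes, in replicate 3. The part of microglia in these levels was not tested. Itgb2 was lower in DRG neurons relative to astrocytes (log2 fold change -6.66, BH-adjusted p = 0.00133; -5.75 without Astrocytes replicate 1 and -7.88 without DRG replicate 1) and relative to OPC (log2 fold change -4.24, BH-adjusted p = 0.00890; -2.68 without OPC replicate 3 and -5.47 without DRG replicate 1). OPC against astrocytes did not pass (log2 fold change -2.42, BH-adjusted p = 0.0650), but did without OPC replicate 3 (log2 -3.89, BH-adjusted p = 0.0215), with DESeq2's Wald test (0.0177) and with limma voom (0.0193). Itgax was lower in DRG neurons relative to astrocytes (log2 fold change -4.52, BH-adjusted p = 0.00334; -3.61 without Astrocytes replicate 3) and relative to OPC (log2 fold change -4.22, BH-adjusted p = 0.00454; -2.98 without OPC replicate 3 and -4.81 without DRG replicate 1).

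Itgad and Itgam had few counts. Itgad had 0, 0.0211 and 0.0258 CPM in DRG neurons, 0.0447, 0.244 and 0.722 CPM in OPC and 0.357, 0.427 and 0.387 CPM in astrocytes. It had 2 counts in DRG neurons against 51 in astrocytes and 44 in OPC, a ratio of astrocytes over DRG neurons of 22.5 (95% counting interval 5.91 to 190.5) and of OPC over DRG neurons of 18.8 (4.91 to 160.2). DRG neurons were lower in both (BH-adjusted p = 0.00707 against astrocytes and 0.00964 against OPC). Intervals cover counting error only. Without OPC replicate 3 the second log2 fold change was -2.68, against -4.08 with it. Itgam, counted over 33 exon bases, had 0.0338, 0 and 0 CPM in DRG neurons, 0.0224, 0.0407 and 0.313 CPM in OPC and 1.92, 0.879 and 0.940 CPM in astrocytes. It had 1 count in DRG neurons against 173 in astrocytes, a ratio of astrocytes over DRG neurons of 152 (27.0 to 6053), and was lower in DRG neurons (log2 fold change -6.73, BH-adjusted p = 0.00133; -8.78 without DRG replicate 1 and -6.11 without DRG replicate 2). It was also lower in OPC relative to astrocytes (log2 fold change -3.32, BH-adjusted p = 0.0120; -5.31 without OPC replicate 3, and not past without OPC replicate 2, BH-adjusted p = 0.0525). DRG neurons against OPC did not pass for Itgam (BH-adjusted p = 0.0601), but did without OPC replicate 1 (0.0337) or 2 (0.0496). Itgae, the alpha subunit of lymphocytes in epithelium, had 0.237, 0.105 and 0.207 CPM in DRG neurons, 0.0224, 0.102 and 0.0241 CPM in OPC and 0.113, 0.0475 and 0 CPM in astrocytes. Itgb7, its partner, averaged 0.108 ± 0.109 CPM in DRG neurons, 0.260 ± 0.220 CPM in OPC and 0.270 ± 0.246 CPM in astrocytes (SD, n = 3 each), and neither was tested.

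**Figure D5:**
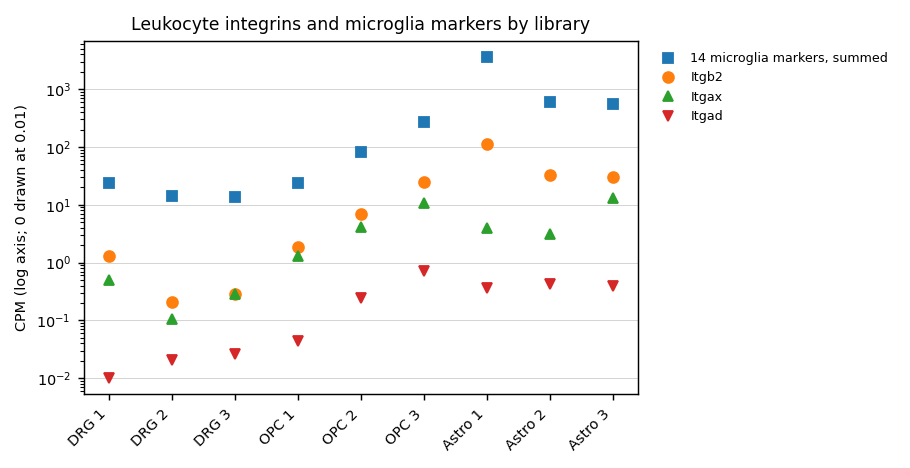
CPM (log axis) of the summed 14 microglia markers and of Itgb2, Itgax and Itgad in each library of DRG neurons, OPC and astrocytes (Astro); a value of 0 is drawn at 0.01. The marker sum and Itgb2 are both highest in Astrocytes replicate 1 and, among OPC, in replicate 3, while Itgax is highest in Astrocytes replicate 3.

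The partners of laminin in basement membranes, and its second receptor dystroglycan with the proteins bound to it, form a list of 14 genes. Of these, 2 were higher and 7 lower in DRG neurons against astrocytes, against OPC 8 were higher and 3 lower, and in OPC against astrocytes 0 were higher and 10 lower in edgeR's test, with 11 of 14 at an unadjusted p under 0.05; DESeq2 and limma voom also called 0 higher. Their median log2 fold changes were -1.47, 1.97 and -2.06 in that order. The share called was 64.3%, 78.6% and 71.4%, against 60.2%, 59.5% and 51.8% of all genes, and that gap was not tested. Bcam, a laminin receptor of the immunoglobulin family that binds Lama5 chains, averaged 899.8 ± 395 CPM in DRG neurons, 18.3 ± 1.43 CPM in OPC and 36.9 ± 9.74 CPM in astrocytes (SD, n = 3 each). It was 24.3-fold higher in DRG neurons relative to astrocytes (log2 fold change 4.61, BH-adjusted p = 1.59e-05) and 49.2-fold higher relative to OPC (log2 fold change 5.62, BH-adjusted p = 9.40e-06). Utrn, the dystrophin relative that links dystroglycan to actin, averaged 599 ± 163, 45.03 ± 17.6 and 321 ± 29.3 CPM in DRG neurons, OPC and astrocytes. Its difference between DRG neurons and astrocytes (log2 fold change 0.90, BH-adjusted p = 0.0355) ended without DRG replicate 2 (0.0866) or 3 (0.114) or Astrocytes replicate 2 (0.0914) or 3 (0.0944).

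The nidogens join laminin to collagen IV. Nid1 averaged 61.6 ± 32.8 CPM in DRG neurons, 1.38 ± 0.313 CPM in OPC and 16.3 ± 15.4 CPM in astrocytes, and was higher in DRG neurons relative to OPC (log2 fold change 5.47, BH-adjusted p = 0.00164). Nid2 averaged 6.44 ± 2.92 CPM in DRG neurons, 1.42 ± 0.304 CPM in OPC and 110.1 ± 47.1 CPM in astrocytes. It was lower in DRG neurons relative to astrocytes (log2 fold change -4.10, BH-adjusted p = 7.65e-05) and in OPC relative to astrocytes (log2 fold change -6.27, BH-adjusted p = 3.14e-05). Hspg2, perlecan, averaged 71.8 ± 27.1 CPM in DRG neurons, 14.2 ± 5.58 CPM in OPC and 427 ± 299.8 CPM in astrocytes and was lower in OPC relative to astrocytes (log2 fold change -4.91, BH-adjusted p = 0.000383; -4.28 without Astrocytes replicate 2). Dag1, dystroglycan itself, and the sarcoglycan Sgce have 7 and 5 accessions and rest on isoform-specific reads. Dag1 averaged 0.967 ± 0.115 CPM in DRG neurons against 3.62 ± 1.31 CPM in OPC (log2 fold change -1.90, BH-adjusted p = 0.00575). Sgce averaged 0.0925 ± 0.0674 CPM in DRG neurons, 0.947 ± 0.169 CPM in OPC and 1.45 ± 0.182 CPM in astrocytes. It was lower in DRG neurons relative to astrocytes (log2 fold change -3.98, BH-adjusted p = 0.000341; -4.63 without DRG replicate 3) and relative to OPC (log2 fold change -3.36, BH-adjusted p = 0.000838; -4.03 without DRG replicate 3).

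Inside the cell, talins, kindlins, parvins and their partners tie integrins to actin, and 20 of 22 such genes were tested. In DRG neurons against astrocytes 4 were higher and 7 lower, against OPC 8 were higher and 5 lower, and in OPC against astrocytes 3 were higher and 9 lower, with medians of -0.36, 0.60 and -0.48. The share called was 55%, 65% and 60% in that order, close to the 60.2%, 59.5% and 51.8% of all genes. The gap was not tested. Tns3, a tensin that binds integrin beta tails, averaged 11.2 ± 4.02 CPM in DRG neurons, 312 ± 90.8 CPM in OPC and 629 ± 146 CPM in astrocytes. It was lower in DRG neurons relative to astrocytes (log2 fold change -5.81, BH-adjusted p = 4.77e-06) and relative to OPC (log2 fold change -4.80, BH-adjusted p = 1.29e-05). Parvb, a parvin of the complex with integrin-linked kinase, averaged 202 ± 54.9 CPM in DRG neurons, 18.5 ± 2.03 CPM in OPC and 13.2 ± 4.80 CPM in astrocytes. Parvb was higher in DRG neurons relative to OPC (log2 fold change 3.45, BH-adjusted p = 2.77e-05). The actin linkers Vcl, vinculin, and Actn1, alpha-actinin, were lower in OPC (61.7 ± 9.06 and 44.3 ± 8.01 CPM) than in astrocytes (598 ± 290.2 and 738 ± 208 CPM), with log2 fold changes of -3.28 (BH-adjusted p = 9.97e-05) and -4.06 (BH-adjusted p = 1.75e-05). Fermt3, the kindlin of blood cells, averaged 0.816 ± 0.348 CPM in DRG neurons against 27.2 ± 24.4 CPM in astrocytes (log2 fold change -5.07, BH-adjusted p = 0.000526; -4.02 without Astrocytes replicate 1, the library with the most microglia marker mRNA). Src and Tns1 have 2 accessions each and rest on isoform-specific reads. Src averaged 2.66 ± 0.469, 2.96 ± 1.04 and 0.128 ± 0.0673 CPM in DRG neurons, OPC and astrocytes. It was higher than in astrocytes both in DRG neurons (log2 fold change 4.37, BH-adjusted p = 0.000124) and in OPC (log2 fold change 4.53, BH-adjusted p = 0.000184). Tns1 had 104 counts in DRG neurons, 2 for OPC and 2 for astrocytes, a ratio of DRG neurons over astrocytes of 59.0 (95% counting interval 15.9 to 493.9) and over OPC of 60.8 (16.4 to 508.9). Lims2, an adaptor of the same complex as Parvb, was called lower in DRG neurons relative to OPC (log2 fold change -3.44, BH-adjusted p = 0.0222) and higher in OPC relative to astrocytes (log2 fold change 3.14, BH-adjusted p = 0.0351) with 69.5, 3.52 and 6.45 CPM in OPC. Without OPC replicate 1 the log2 fold changes were -1.03 (BH-adjusted p = 0.193) and 0.74 (0.360). The first call also ended without DRG replicate 2 (0.0742) or 3 (0.0688), and the second without any 1 astrocyte library (0.0540 to 0.0943).

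Of 14 genes for integrin ligands other than laminin, 13 were tested. Of these, 4 were higher and 9 lower in DRG neurons against astrocytes, against OPC 8 were higher and 3 lower, and in OPC against astrocytes 1 was higher and 7 lower, with medians of -2.94, 2.68 and -3.15. The share called was 100%, 84.6% and 61.5% in that order, against 60.2%, 59.5% and 51.8% of all genes. That gap was not tested. L1cam, the axonal adhesion molecule that binds integrins through an RGD motif, averaged 1400 ± 22.9 CPM in DRG neurons, 2.43 ± 0.672 CPM in OPC and 1.68 ± 1.47 CPM in astrocytes (SD, n = 3 each). L1cam was higher in DRG neurons relative to astrocytes (log2 fold change 9.70, BH-adjusted p = 6.57e-06; 10.72 without Astrocytes replicate 2) and relative to OPC (log2 fold change 9.17, BH-adjusted p = 1.03e-05). Edil3, a secreted ligand of Itgav integrins, averaged 63.1 ± 25.5, 1.23 ± 1.12 and 0.107 ± 0.121 CPM in DRG neurons, OPC and astrocytes, from 2 accessions. For Edil3, and for Postn below, reads shared by transcripts of the gene would join the ambiguous class. Their levels may therefore not follow the whole gene. Edil3 was higher in DRG neurons relative to astrocytes (log2 fold change 9.23, BH-adjusted p = 0.000116), at 8.56 to 10.70 without Astrocytes replicate 1 or 2. In OPC it was higher than in astrocytes (log2 fold change 3.55, BH-adjusted p = 0.0137), at 2.51, 2.88 and 5.03 without OPC replicate 1, Astrocytes replicate 1 and Astrocytes replicate 2. Postn, periostin, with 3 accessions, averaged 6.97 ± 3.77 CPM in DRG neurons against 0.0303 ± 0.0155 CPM in OPC (log2 fold change 7.74, BH-adjusted p = 9.19e-05; 8.39 without OPC replicate 3).

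Ligands highest in astrocytes included Vcam1, the ligand of Itga4, at 1.69 ± 0.903 CPM in DRG neurons against 215 ± 59.0 CPM in astrocytes (log2 fold change -7.00, BH-adjusted p = 5.64e-06). The matricellular gene Ccn1 averaged 16.5 ± 10.8 CPM in DRG neurons against 979.6 ± 333 CPM in astrocytes (log2 fold change -5.89, BH-adjusted p = 5.49e-05). Its relative Ccn2 averaged 0.394 ± 0.119 CPM in OPC against 1275 ± 1168 CPM in astrocytes (log2 fold change -11.65, BH-adjusted p = 0.000158; -10.64 without Astrocytes replicate 3). Fn1, fibronectin, with 7 accessions, had 0.0894, 0.122 and 0.0962 CPM in OPC and 6.09, 149 and 114 CPM in astrocytes (log2 fold change -9.73, BH-adjusted p = 0.000530), and was lowest in the astrocyte library with the least fibroblast and mural marker mRNA. The part of those cells in its level was not tested. Tnc, tenascin-C, averaged 41.4 ± 12.7 CPM in DRG neurons, 176 ± 76.8 CPM in OPC and 1553 ± 1110 CPM in astrocytes, and its call in DRG neurons against OPC (log2 fold change -2.08, BH-adjusted p = 0.0192) ended without OPC replicate 3 (0.109) or DRG replicate 2 (0.0651) or 3 (0.0649). Mfge8, a ligand of Itgav integrins with 2 accessions, averaged 0.436 ± 0.160 CPM in DRG neurons against 1.87 ± 0.503 CPM in OPC (log2 fold change -2.10, BH-adjusted p = 0.0258), a call lost without DRG replicate 1 (0.0653) or 2 (0.0906) or OPC replicate 3 (0.110). Reads shared by the transcripts of Fn1, or by those of Mfge8, would join the ambiguous class. The levels of both may therefore not follow the whole gene.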

How the data were processed

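The authors deposited 1 table of raw read counts per library, whole numbers per RefSeq transcript accession. The submitters' processing notes name TopHat2, HTSeq and mm10; versions, counting mode and strand setting are not given in the sources used here, and the labels' protocol names an Illumina TruSeq stranded mRNA kit. Accessions were named from RefSeq and GENCODE tables and summed to 24170 genes. The 22.0 to 24.7% of reads in the ambiguous class and the other rows naming no gene were left out. Genes were tested with edgeR 4.0.16 in R 4.3.3: filterByExpr with a minimum count of 10, TMM factors, 1 quasi-likelihood fit over the 9 libraries with 6 residual degrees of freedom, F-tests for the 3 pairs of cell types, and Benjamini-Hochberg adjustment over 14848 genes at 0.05. The first-named cell type is on top of each log2 fold change, and its SE was calculated back from the F statistic. limma 3.58.1 and DESeq2 1.42.0 served as alternatives, 20 settings in all. On simulated counts for DRG neurons against astrocytes over 14608 genes, 2.99% of genes changed by 1 on the log2 scale, 61.2% of those changed by 2 and 83.3% of those changed by 3 were recovered, with 3 false calls. Only 67, 67 and 66 genes were changed in that order, where 60.2% of genes were called in the data. The adjustment is stricter with so few changed genes, so these rates do not give the power of the reported tests. Levels per kb divide CPM by the longest accession's length. Members of the laminin and integrin families, the pathway lists and the markers were chosen with earlier results of these data known. Values in every library are given for members called with a 2-fold or larger difference and a group mean of 5 CPM or more, and for the leukocyte integrins; up to 4 genes per comparison are named from each pathway list. Genes outside this rule that are given in every library were chosen after their values were seen.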

Additional observations from a re-analysis of the deposited data

How the results depend on the processing

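Of 90 member values, 64 were called, and 49 of these stayed called in the same direction under all 20 alternatives; 15 lost the call under at least 1 and 0 reversed. Of the 26 not called, 12 passed under at least 1 alternative. Values that changed sign were all uncalled, and the cause was not tested. With library size alone, Itga5 had a log2 fold change of -0.19 and Itga9 of -0.0805 in DRG neurons against astrocytes, and Itga4 of -0.0841 in DRG neurons against OPC. DESeq2's size factors and Wald test each gave Lama5 0.11 in DRG neurons against OPC. With Astrocytes replicate 1 and OPC replicate 3 both left out, Itga5 had -0.21 and Itgb4 2.03 in DRG neurons against astrocytes, Lama5 0.16 in DRG neurons against OPC and Itgb8 0.0864 in OPC against astrocytes. Itgb4 had 0.54 with limma voom in DRG neurons against astrocytes. With the length trend removed, Itga4 had -0.0407 in DRG neurons against OPC, and Itgad 0.0248 and Itgb8 0.0166 in OPC against astrocytes.

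Leaving out each library in turn gave, in DRG neurons against astrocytes, -0.55 to 0.0507 for Itga3, -0.31 to 0.85 for Itga5 and -0.47 to 0.52 for Itga9. In DRG neurons against OPC it gave -0.47 to 0.16 for Lama5 and -0.0897 to 0.53 for Itga4. In OPC against astrocytes it gave -1.54 to 0.31 for Itgad, -1.44 to 0.61 for Itgax, -0.66 to 0.0946 for Itgb1 and -0.63 to 0.0936 for Itgb8. Members higher in OPC than in astrocytes numbered 2 to 4. Basement membrane genes higher in DRG neurons than in astrocytes numbered 1 to 4, and those higher in OPC than in astrocytes 0 to 1. Adhesion machinery genes in OPC against astrocytes numbered 1 to 3 higher and 5 to 9 lower. Ligand genes lower in DRG neurons than in OPC numbered 1 to 4, and those higher in OPC than in astrocytes 1 to 2.

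Among other settings, basement membrane genes higher in DRG neurons than in astrocytes, 2 as reported, were 1 with library size alone, 5 with DESeq2's Wald test and 4 with only the 6 libraries compared. With those 6 libraries, members higher in OPC than in astrocytes were 2 and adhesion machinery genes 1. With the length trend removed, adhesion machinery genes higher in DRG neurons than in OPC were 5, and basement membrane genes higher in OPC than in astrocytes were 1. limma voom called 3 adhesion machinery genes lower in DRG neurons than in OPC. Library size alone moved the median of all genes by -0.26 in DRG neurons against astrocytes.

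With the replicate block, 6 called member values lost the call and 0 were gained, basement membrane genes higher in DRG neurons than in astrocytes were 1, and Itgb4 had 0.34. Same-numbered libraries deviated with correlations of -0.036 to 0.128, with 1 of 9 pairs over 0.1. Of the 9 libraries, 3 correlated best with their own number in both other groups. With 3 libraries a group, these values cannot decide whether same-numbered libraries were prepared together.

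Over the exon bases of no other accession, an alternative chosen after seeing the data, Itga6 made up 2.417% of alpha subunits in DRG neurons, 15.49% for OPC and 26.21% for astrocytes, and Itgb5 7.552%, 1.483% and 40.2% of beta subunits. Itgb1 then made up 91.8% in DRG neurons, 91.36% for OPC and 52.5% for astrocytes. In astrocytes Itgb8 then made up 2.751%, Itga7 7.193%, Itga3 15.45%, Itgav 20.01% and Itga8 0.1165%.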
